A study of Mus musculus with 14 samples.

Results

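The heat shock chaperone genes described here are Hsph1, Dnajb1, Hspa1a, Hspa1b, Hspa8, Hspa4, Hsp90aa1, Hspb1, Hspd1 and Hsf1. They were found by these symbols among the genes of the count tables, and all 10 were present among 24411 genes. The RNA came from MC-38, an established mouse colon cancer line, in 14 libraries of 6 groups. In culture, 3 control libraries were untreated and 3 were given NETs (neutrophil extracellular traps), webs of DNA and protein that neutrophils release, as chromatin prepared from neutrophils in vitro. In the lung tumours, GFP-expressing MC-38 cells were taken by flow sorting on day 30 from 4 kinds of host with 2 libraries each: wild-type (WT) mice without surgery, WT mice with a laparotomy (surgical opening of the abdomen) on days 0 and 10, and PAD-4 knockout (PAD4 KO) mice without or with the same 2 laparotomies. PAD4 is the enzyme that citrullinates histones during NET release. It was absent only from the host, since the cancer cells of all 6 groups are labelled WT. The labels give no host strain, age or sex and name no mouse or culture for any library, so replicates may be technical and p-values measure only the spread between these libraries. The study asked what NETs and surgery change in these cancer cells.

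Heat shock proteins are chaperones that bind unfolded proteins and help them fold, refold or be degraded. Hsf1 encodes the transcription factor that is held inactive in unstressed cells and, when unfolded protein accumulates, binds heat shock elements (arrays of the letters GAA in alternating orientation) in front of the inducible chaperone genes. HSP70 proteins (Hspa1a, Hspa1b, Hspa8) work in cycles of ATP use that J-domain partners such as Dnajb1 start and HSP110-type nucleotide exchange factors (Hsph1, Hspa4) end, HSP90 (Hsp90aa1) finishes the folding of kinases and receptors, HSP60 (Hspd1) folds proteins inside mitochondria, and HSP27 (Hspb1) holds unfolded protein without using ATP. Cancer cells are known to carry high levels of many of them.

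The promoter stretches below are shown because they hold letters of the kind that make up a heat shock element. RefSeq windows (build GRCm38.p6) of the 250 bases before a start site were matched by symbol for 7 of the 10 members. Hspa8, Hsp90aa1 and Hsf1 had no entry. The search was for a pair of neighbouring units, GAANNTTC or TTCNNGAA, each of which is its own reverse complement so that both strands are covered, and for the triple GAANNTTCNNGAA or TTCNNGAANNTTC, which contains pairs. A pair was present in 12.8% of 32851 windows of the same length and a triple in 0.466%. The stretches are written 5′ to 3′ on the gene's strand, with the matched letters in capitals.
Hspa1b, chr17:34959309-34959368, minus strand: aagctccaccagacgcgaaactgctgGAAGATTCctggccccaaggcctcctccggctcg
Hspa1a, chr17:34972227-34972286, minus strand: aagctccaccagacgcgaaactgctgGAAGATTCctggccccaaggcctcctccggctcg
Hspb1, chr5:135887789-135887848, plus strand: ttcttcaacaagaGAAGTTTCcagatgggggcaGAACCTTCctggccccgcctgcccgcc
Hspd1, chr1:55088053-55088082, minus strand: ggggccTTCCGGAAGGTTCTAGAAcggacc
Hsph1, chr5:149636347-149636376, minus strand: agaatctTTCTCGAAggctcgagaagaagg
Of the 10 windows of these 7 genes, 6 held at least 1 pair and 1, a second start site of Hspd1, held the triple. The windows of the Hsph1 start sites overlap and hold the same pair, so the windows are not separate cases. Counted by gene, 5 of the 7 held a pair. The upstream windows of Hspa1a and Hspa1b, which lie next to each other on chromosome 17, differed at 3 of 250 bases. The Hspd1 and Hsph1 stretches overlap annotated exon and UTR of their own gene, and the other stretches overlapped no annotated gene. The windows of Dnajb1 and Hspa4 held no match. A match is a description of letters and not of binding, and a window without one says nothing about HSF1.

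Some members share sequence with other genes, which bears on how reads were assigned. Of the 100-base windows of the Hspa1a transcript, 47.1% were identical to Hspa1b, and 49.9% of those of Hspa1b were identical to Hspa1a. Hspa8 shared 63.4% of its windows with other genes, mainly processed copies, Hsp90aa1 47.5%, Hspb1 42.7% and Hspd1 26.9%. Reads that map to several places stand on a summary line of their own in the tables and not with a gene, so the levels of these 6 genes are uncertain. Hsph1, Dnajb1, Hspa4 and Hsf1 shared none. In GENCODE's GRCm38 annotation the neighbours Hspa1b (chr17:34956436-34959238) and Hspa1a (chr17:34969190-34972156) lie on the minus strand, as do Hsph1 (chr5:149614287-149636376), Hsp90aa1 (chr12:110690605-110702728), Hspa4 (chr11:53259814-53300457) and Hspd1 (chr1:55077835-55088243). Hspb1 (chr5:135887919-135889563), Hspa8 (chr9:40800984-40810087), Dnajb1 (chr8:83608193-83612653) and Hsf1 (chr15:76477422-76501913) lie on the plus strand.

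Total gene counts per library, divided by 1e+06, were 6.39 to 20.6 in culture and 10.8 to 31.3 in the tumours. The labelled cell type could be checked only in part: summed colon epithelium markers, 9 genes including Epcam and Cdx2, were 0.931 to 1.97 CPM (counts scaled to a common library total of 1e+06) in culture and 1.80 to 20.4 CPM in the tumours. WT control library 2 stood apart by its markers of other cells, with summed levels of 917 CPM for 10 leukocyte genes, 807 CPM for 10 lung epithelium genes and 459 CPM for 8 endothelial genes, against medians over the 8 tumour libraries of 114, 100.5 and 91.0 CPM. PAD4 KO control library 2 was next for the lung and endothelial lists, at 420 and 276 CPM. In bulk RNA, more cells of a type and more RNA per cell cannot be told apart.

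In the untreated cultures Hspa8 and Hspd1 were the most abundant members per length, and Hspa1a, Hspa1b and Hspb1 were near absent. Per kilobase of exon, mean levels over the 3 control cultures were 255 CPM per kb for Hspa8, the constitutive HSP70, and 229 CPM per kb for Hspd1. Hsp90aa1, at 77.5, and Hspa4, at 72.9 CPM per kb, followed and overlapped between libraries, then Hsph1 at 25.6, Dnajb1 at 14.3 and Hsf1 at 8.29 CPM per kb. Hspa1b, an inducible HSP70, lay at 0.357 CPM per kb. Hspa1a gave 1 read over all 6 cultures. Hspb1 gave 12 reads, 11 of them from the strand opposite to the gene, so that 1 read in 6 libraries came from Hspb1 itself. In all 8 tumour libraries together the order by median level per kilobase was Hspa8 (778 CPM per kb), Hspd1, Hsp90aa1, Hsph1, Hspa4, Dnajb1, Hspa1b (18.1), Hsf1, Hspb1 and Hspa1a (0.668). Hsph1 stood below Hspa4 in the control cultures and above it in this order, and Hspa1b stood below and then above Hsf1.

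**Figure D1:**
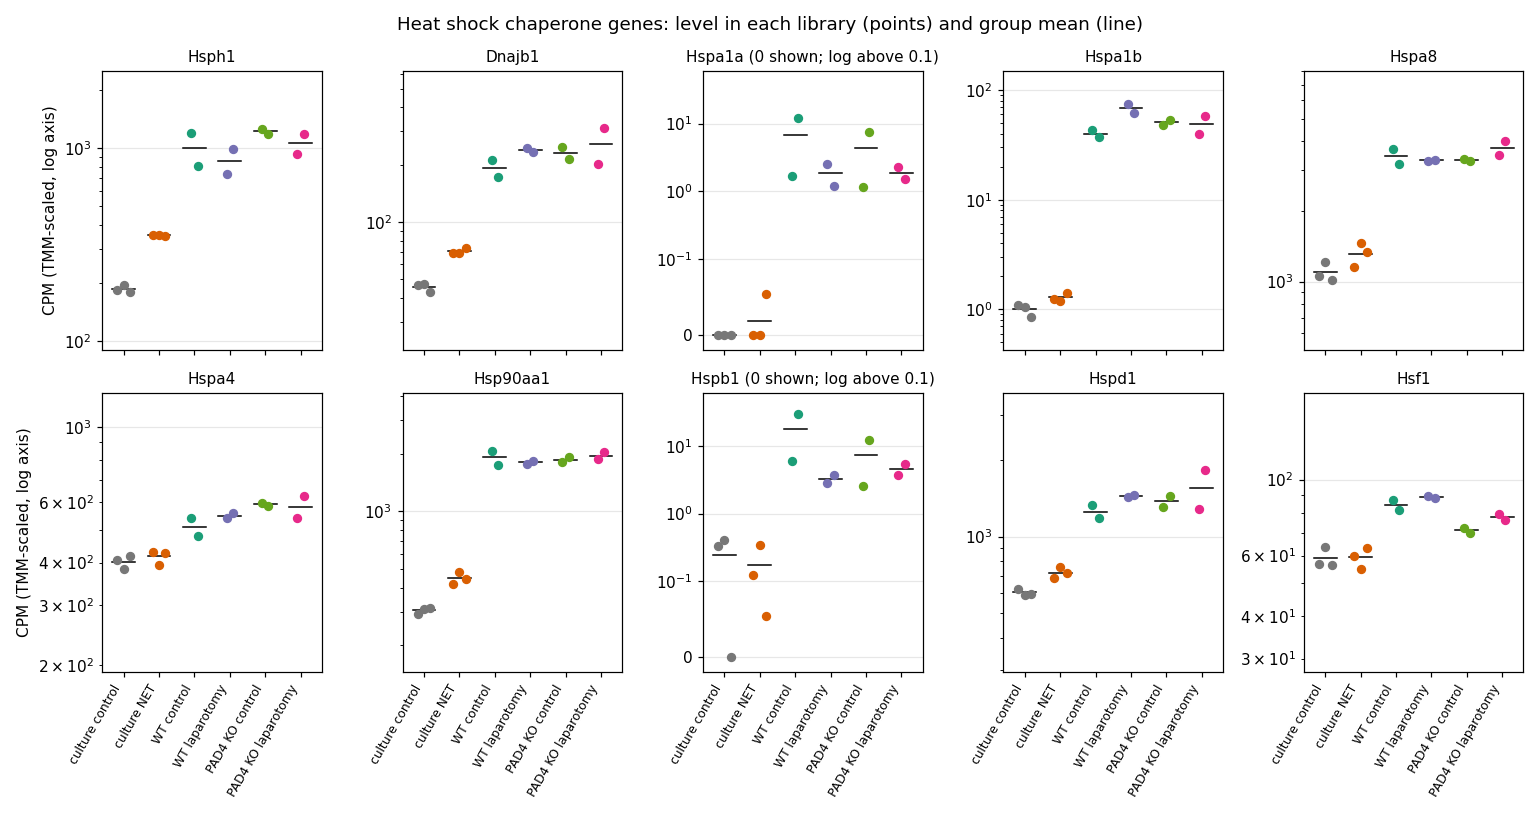
Level of each member in each library, in CPM scaled by TMM on a log axis (Hspa1a and Hspb1 also show 0), with 1 point a library and a line at the group mean, for 2 culture groups of 3 and 4 tumour groups of 2. Hsph1, Dnajb1 and Hsp90aa1 sit higher with NET chromatin than in control cultures, and for every member the 8 tumour libraries sit above the 6 cultures.

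With NET chromatin, the cultured cells held more RNA of 5 members, Hsph1, Dnajb1, Hsp90aa1, Hspa8 and Hspd1, and none fell. Hsph1 showed the largest difference. The cytosolic Hsph1, Dnajb1 and Hsp90aa1 moved most, the mitochondrial HSP60 and the constitutive HSP70 by less, and Hsf1 itself was not called. Of 8 members with enough reads to test, 5 were called higher by edgeR's quasi-likelihood test at a Benjamini-Hochberg adjusted p below 0.05, and 26.3% of all 11753 genes tested were called higher in the same comparison. Hspa1a and Hspb1 had too few reads. The median log2 fold change was 0.32 over the 8 members and 0.00067 over all genes. The members were chosen with earlier results of these data known. Their counts and medians, here and below, therefore describe these genes and do not test a preset list.

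Hsph1 encodes HSP110, which releases ADP from HSP70. It was at 183, 195 and 180 CPM in the control cultures and at 356, 353 and 353 CPM with NET chromatin. The groups did not overlap. Here and for the members below, the share of all genes whose culture groups do not overlap was not counted. The log2 fold change was 0.92 ± 0.06 (SE, n = 3 and 3, adjusted p = 8.05e-09).

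Dnajb1, the J-domain protein that delivers unfolded clients to HSP70, was at 46.6, 47.6 and 42.8 CPM in control cultures and 68.7, 69.1 and 73.2 CPM with NET chromatin. Every treated library lay above every control. Its log2 fold change was 0.61 ± 0.08 (SE, n = 3 and 3, adjusted p = 3.7e-06).

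Hsp90aa1, the inducible cytosolic HSP90, was at 291, 311 and 313 CPM in control cultures and 415, 482 and 446 CPM with NET chromatin, again without overlap. Its log2 fold change was 0.54 ± 0.07 (SE, n = 3 and 3, adjusted p = 5.54e-06).

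Hspa8 and Hspd1 were called with smaller differences. Hspa8 was at 1057, 1220 and 1020 CPM in control cultures and at 1152, 1468 and 1337 CPM with NET chromatin, so the lowest treated library lay below the highest control. Its log2 fold change was 0.25 ± 0.09 (adjusted p = 0.021, edgeR), and the call was lost on leaving out control library 1, control library 3, NET library 2 or NET library 3 (adjusted p of 0.0597, 0.108, 0.106 and 0.0517). Hspd1 was at 626, 590 and 597 CPM in control cultures and at 690, 762 and 718 CPM with NET chromatin, with no overlap. Its log2 fold change was 0.25 ± 0.07 (adjusted p = 0.00398, edgeR). When the libraries were scaled by their totals alone, the median of all genes moved from 0.00067 to -0.16, Hspa8 and Hspd1 were at 0.094 and 0.089 and were not called (adjusted p = 0.322 and 0.221), and 1640 genes were called higher and 4777 lower in place of 3093 and 3270. Hsph1, Dnajb1 and Hsp90aa1 were called higher in every alternative listed in the closing section.

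Of the 3 remaining members that could be tested, Hsf1 was at 56.4 to 63.6 CPM in control cultures and 54.9 to 63.1 CPM with NET chromatin, a log2 fold change of 0.0049 ± 0.08 (adjusted p = 0.962, edgeR) with a 95% interval of -0.15 to 0.16. Hspa4 gave 0.04 ± 0.06 (adjusted p = 0.629) with an interval of -0.085 to 0.16. Hspa1b was at 1.09, 1.05 and 0.854 CPM in control cultures and at 1.25, 1.19 and 1.41 CPM with NET chromatin. Its groups did not overlap, but these levels rest on 34 and 43 reads, and the log2 fold change of 0.39 ± 0.31 was not called (adjusted p = 0.301, interval -0.21 to 1.00). Under scaling by library totals Hsf1 and Hspa4 gave -0.15 and -0.12.

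The cultures with NET chromatin also gave higher sums for several marker lists of other cells. The summed level of 10 leukocyte genes was 16.1 to 18.5 CPM with NET chromatin and 4.73 to 5.03 CPM in control cultures, and that of 9 neutrophil genes was 8.76 to 11.4 against 0.310 to 0.970 CPM. The monocyte and macrophage list was at 152 to 174 CPM with NET chromatin and 86.2 to 106 CPM in control cultures, and the fibroblast list at 139 to 151 against 97.1 to 99.2 CPM. The part of other cells' RNA in the members' differences was not tested.

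Other genes of the chaperone network were described from a list of 81 genes in 7 families, of which 80 were in the tables. This list, too, was chosen with earlier results of these data known. With NET chromatin 39 of 72 tested were called higher and 11 lower (median log2 fold change 0.25). Over all 11753 genes, 3093 were called higher and 3270 lower, and the family counts below stand beside these. Under scaling by library totals 29 chaperone genes were called higher and 16 lower (median 0.089 against -0.16 for all genes), beside 1640 and 4777 of all genes. The chaperonins, the subunits of the TRiC ring of the cytosol and the HSP10 lid of HSP60, were called higher in 9 of 9 cases, by 0.28 (Cct7) to 0.56 (Cct2) on the log2 scale, and in 8 of 9 under library totals, where Cct7 missed the threshold (adjusted p = 0.0749). The HSP90 family and its co-chaperones counted 9 higher and 0 lower of 15, among them Hsp90ab1, the constitutive partner of Hsp90aa1, at 0.35 ± 0.08 and the adaptor Stip1 at 0.43 ± 0.06. J-domain proteins were mixed, with 8 higher and 4 lower of 20, as were nucleotide exchange factors, with 3 higher and 4 lower of 10. The other HSP70 and HSP110 genes counted 6 higher and 1 lower of 9, the other small heat shock proteins 1 and 2 of 4, and the other heat shock factors and regulators 3 and 0 of 5. Hspa1l is among the 6, though its culture reads were all on the opposite strand. On the sense-strand counts it could not be tested, and 38 genes of the whole list were called higher and 10 lower.

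By the naming rule, the largest positive differences among these genes were Hspa5 (1.29 ± 0.07), the HSP70 of the endoplasmic reticulum known as BiP, Hspa1l (0.99 ± 0.17) and Dnajb6 (0.83 ± 0.10), a J-domain protein that keeps aggregation-prone proteins soluble. Hspa5 rose from a mean of 2780 ± 127 to 6857 ± 255 CPM (SD, n = 3 and 3), beside 0.92 on the log2 scale for Hsph1. The value of Hspa1l is not one of its own RNA: in culture 0 of its reads were on the gene's strand and 576 were on the opposite strand. The largest negative differences were Bag2 (-0.86 ± 0.11), which inhibits the ubiquitin ligase of the HSP70 system, Dnajc1 (-0.68 ± 0.08) and Bag5 (-0.57 ± 0.10). For Dnajc1, 43.7% of the culture reads were antisense, and on the sense-strand counts alone it was at -0.72 ± 0.08. The small heat shock gene Cryab, picked after its value was seen, rose by 2.08 ± 0.35 on the log2 scale from a low level of 0.410 to 1.73 CPM.

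**Figure D2:**
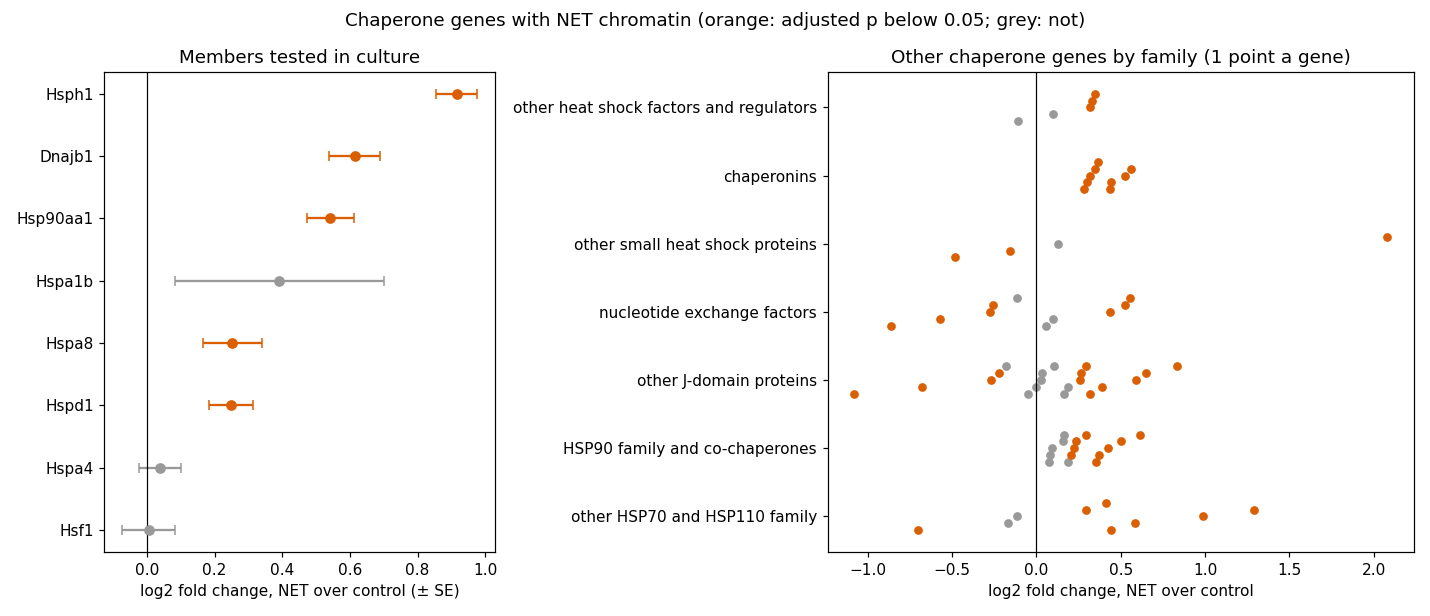
Log2 fold change of NET over control cultures from edgeR. Left, the 8 tested members with SE bars, from Hsf1 at 0.0049 to Hsph1 at 0.92. Right, the other chaperone genes by family, 1 point a gene and no error bar. Orange points have an adjusted p below 0.05, and all 9 chaperonins are orange and to the right of 0.

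In the tumours, no member was called in any of the 5 comparisons between host groups by edgeR, which tested all 10. The high and stable members differed little: Hspa8 lay between 3198 and 4018 CPM and Hsp90aa1 between 1747 and 2073 CPM over the 8 libraries. Hspa1b had the smallest adjusted p, for laparotomy in WT hosts, and Hspb1 and Hspa1a varied most. The share of all 14615 genes that was called was 0.0547% for laparotomy in WT hosts, 0.520% for laparotomy in PAD4 KO hosts, 0.677% for the difference of these 2 effects, 0.116% for PAD4 KO against WT hosts without laparotomy and 0.0205% with it, so few calls were made for any gene. At an unadjusted p below 0.05, the members counted 2, 0, 1, 1 and 1 of 10 in these comparisons, beside 18.8, 15.7, 19.2, 16.3 and 13.4% of all genes. DESeq2 called 2, 0, 0, 0 and 0 members, beside 1220, 789, 1131, 782 and 534 genes in all. With 2 libraries a group and a common biological coefficient of variation of 0.278, small differences could not be detected.

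Hspa1b encodes one of the 2 near-identical HSP70 proteins that heat and other stresses induce. It was at 43.3 and 37.1 CPM in WT control tumours, 75.2 and 61.5 CPM in WT laparotomy tumours, 47.8 and 53.9 CPM in PAD4 KO control tumours and 40.0 and 58.4 CPM in PAD4 KO laparotomy tumours. Both WT laparotomy libraries lay above the other 6 tumour libraries, which spanned 37.1 to 58.4 CPM. The share of all genes with this order was not counted. The effect of laparotomy in WT hosts was 0.77 ± 0.20 on the log2 scale (SE, n = 2 and 2, adjusted p = 0.141, edgeR). DESeq2 called it (0.75, adjusted p = 0.0126), as did an edgeR fit over all 14 libraries (0.77, adjusted p = 0.0166). These 2 called 1220 and 1450 genes in all, beside 8 in the main fit. The 14-library fit also takes its spread in part from the cultures, which vary less than the tumours.

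In PAD4 KO hosts the laparotomy effect on Hspa1b was -0.06 ± 0.20 (adjusted p = 0.918, edgeR). The difference between the 2 hosts' effects was -0.83 ± 0.28 (adjusted p = 0.171, edgeR), with an approximate 95% interval of -1.37 to -0.28. It was called by the fit over all 14 libraries (-0.81, adjusted p = 0.0406) and not by DESeq2 (adjusted p = 0.0847). The 14-library fit called 1596 genes in all for this difference, beside 99 in the main fit. Between the laparotomy groups, the log2 fold change of PAD4 KO against WT hosts was -0.48 ± 0.20 and was not called (adjusted p = 0.343, edgeR). In the same WT comparison Dnajb1 was at 0.32 ± 0.20 (adjusted p = 0.438), Hspd1 at 0.20 ± 0.16 (adjusted p = 0.546) and Hsph1 at -0.22 ± 0.22 (adjusted p = 0.646, edgeR).

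Hspb1 was at 5.85 and 28.8 CPM in WT control tumours, 2.80 and 3.65 CPM in WT laparotomy tumours, 2.53 and 12.1 CPM in PAD4 KO control tumours and 3.72 and 5.44 CPM in PAD4 KO laparotomy tumours. The 2 highest libraries were the second of each control group. The effect of laparotomy in WT hosts was -2.45 ± 0.89 (adjusted p = 0.211, edgeR; adjusted p = 0.0122 in DESeq2). Without WT control library 2 it was -0.84 (adjusted p = 0.797).

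Hspa1a, the neighbour of Hspa1b, followed the same 2 libraries at a far lower level. It was at 1.71 and 12.0 CPM in WT control tumours, 2.55 and 1.20 CPM in WT laparotomy tumours, 1.17 and 7.56 CPM in PAD4 KO control tumours and 2.26 and 1.53 CPM in PAD4 KO laparotomy tumours. Its laparotomy effect in WT hosts of -1.90 ± 1.06 (adjusted p = 0.378, edgeR) became 0.14 without WT control library 2. In the PAD4 KO hosts the effect of -1.21 ± 1.06 became 0.65 without PAD4 KO control library 2.

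The 2 libraries that were high in Hspb1 and Hspa1a were those with the highest lung epithelium and endothelial markers. The summed lung epithelium and endothelial markers reached 1266 CPM in WT control library 2 and 696 CPM in PAD4 KO control library 2, and 67.4 to 256 CPM in the other 6 tumour libraries. The leukocyte, neutrophil, and B and plasma cell lists were also highest in these 2 libraries. The monocyte and macrophage, T and NK cell, fibroblast and colon epithelium lists did not have them as the 2 highest. The fibroblast list was at 913.5 and 571 CPM in them, and at 2797 CPM in PAD4 KO laparotomy library 2. The part of host cell RNA in the levels of Hspb1 and Hspa1a was not tested. Hspa1b was at its lowest tumour level, 37.1 CPM, in WT control library 2. In PAD4 KO control library 2 it was at 53.9 CPM, beside a median of 50.9 CPM over the 8 tumour libraries. The library with the least lung and endothelial marker RNA, WT laparotomy library 1 at 67.4 CPM of markers, had the highest Hspa1b, 75.2 CPM. The part of host cell RNA in the level of Hspa1b was not tested.

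**Figure D3:**
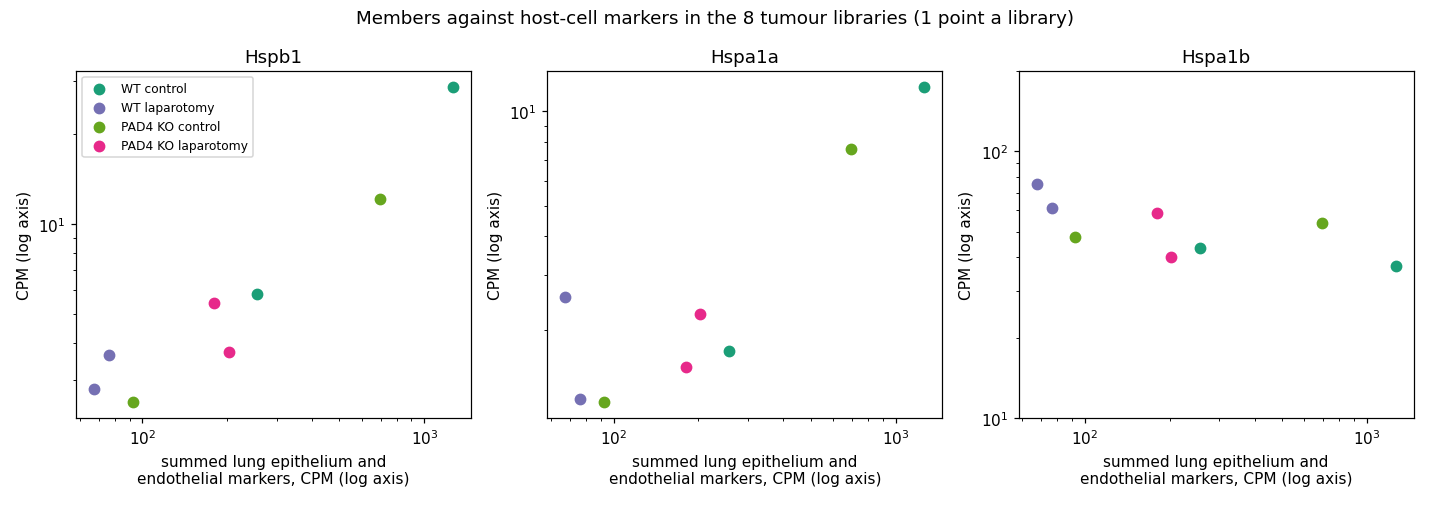
Level of Hspb1, Hspa1a and Hspa1b against the summed lung epithelium and endothelial markers in the 8 tumour libraries, all in CPM on log axes, 1 point a library, coloured by group. The 2 control libraries with 696 and 1266 CPM of markers hold the most Hspb1 and Hspa1a, and Hspa1b is lowest at 1266 CPM.

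Hsf1, the regulator, did not overlap between the 2 kinds of host but was not called. The share of all genes that separate the hosts in this way was not counted, so the separation cannot be called particular to Hsf1. All 4 libraries from WT hosts lay between 81.5 and 89.6 CPM and all 4 from PAD4 KO hosts between 69.8 and 79.3 CPM. The log2 fold change of PAD4 KO against WT hosts was -0.25 ± 0.10 without laparotomy (adjusted p = 0.279) and -0.20 ± 0.10 with it (adjusted p = 0.422, edgeR).

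Among the other members, Hsph1 was at 1197 and 807 CPM in WT control tumours, 732 and 991 CPM in WT laparotomy tumours, 1263 and 1189 CPM in PAD4 KO control tumours and 937 and 1190 CPM in PAD4 KO laparotomy tumours. Both PAD4 KO control libraries lay above both WT laparotomy libraries, the 2 control groups overlapped, and no difference was called. Dnajb1 ranged from 173 to 312 CPM, Hspd1 from 1183 to 1829 CPM and Hspa4 from 479 to 628 CPM over the 8 libraries. For Hspa8, Hspa4 and Hsp90aa1 the largest of the 4 simple effects in size was 0.22 ± 0.11, that of Hspa4 in PAD4 KO against WT hosts without laparotomy (adjusted p = 0.373, edgeR).

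Of the other chaperone genes, 0 of 76 were called by edgeR in each of the 5 tumour comparisons. At an unadjusted p below 0.05 they counted 15, 10, 15, 12 and 13 in the order given above, beside the same shares of all genes of 18.8, 15.7, 19.2, 16.3 and 13.4%. DESeq2 called 7 lower after laparotomy in WT hosts, 2 higher after laparotomy in PAD4 KO hosts, 4 higher in the difference, 1 lower in PAD4 KO hosts without laparotomy, and 3 higher and 1 lower with it. Over all genes the DESeq2 counts in the same order and direction were 941, 442, 737, 483, and 348 and 186.

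**Figure D4:**
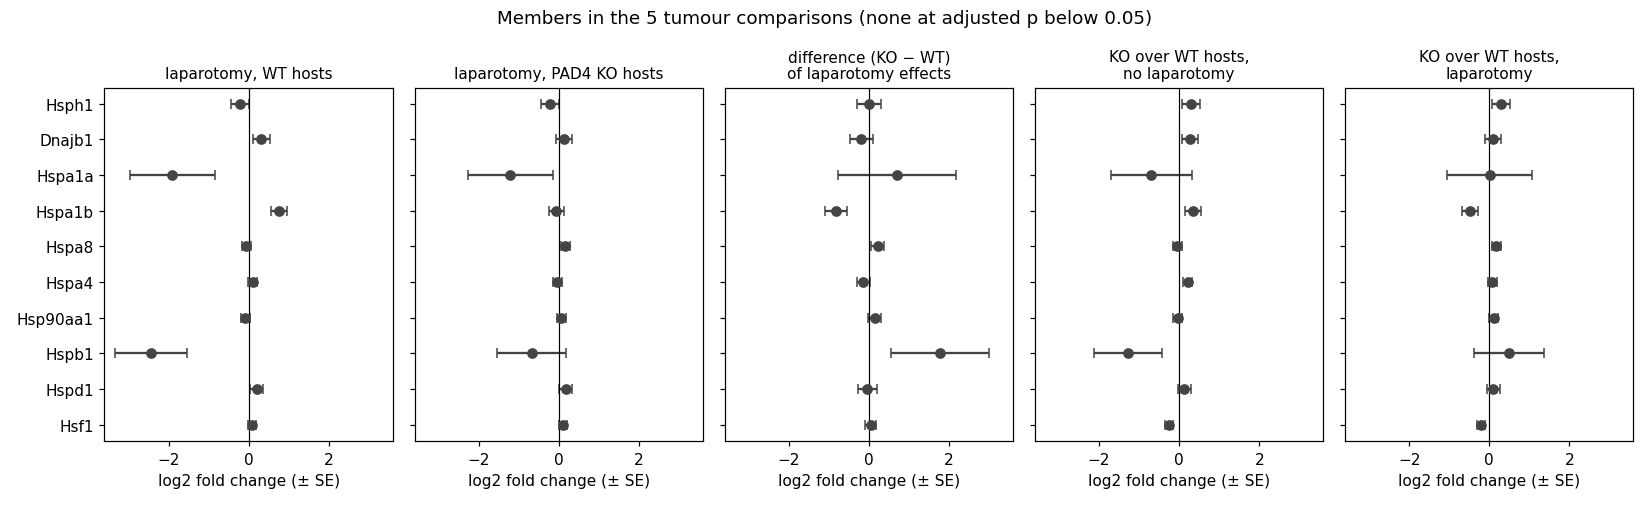
Log2 fold change with its SE for the 10 members in the 5 comparisons between tumour groups, from the edgeR fit of 8 libraries. The bars of Hspa1a and Hspb1 are the widest, and Hspa1b is at 0.77 for laparotomy in WT hosts, -0.06 in PAD4 KO hosts and -0.83 for their difference.

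The largest differences of these genes were between the tumours and the cultures. All 10 members were higher in WT control tumours than in control cultures, with Hspa4 the least and Hspa1a, Hspa1b and Hspb1, which were near absent in culture, the most. The comparison sets plate against lung, unlabelled against GFP-sorted cells and cancer cells alone against sorted cells that may carry host RNA. These cannot be told apart. By edgeR 10 of 10 were called higher, beside 37.0% of all 13259 genes tested, with a median log2 fold change of 2.27 against 0.038 for all genes. Putting Hspa1a and Hspb1 at lower limits of 6.74 and 8.01 on the log2 scale could not change this median, since both limits lie above it. A median without these 2 genes was not taken. Over all 14 libraries, each member was higher in every tumour library than in every culture, which held for 26.1% of 14421 genes. In both counts Hspa1a and Hspb1 passed the read filter only through the tumour libraries, where they were high. Their part in these counts was therefore fixed in advance.

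The members that were near absent in culture differed most. Hspa1b rose from 34 reads over the control cultures to 1644 reads over the 2 WT control tumours, a ratio of scaled counts of 39.2 (95% Poisson interval 27.9 to 56.8, for counting error only) and a log2 fold change of 5.35 ± 0.16 (n = 3 and 2, adjusted p = 3e-06, edgeR). Hspa1a had 0 reads in the control cultures and 395 in the WT control tumours, which is at least 107-fold higher when 3 reads over the culture group are taken as the floor. Hspb1 had 0 sense-strand reads and 953, at least 258-fold higher on the same floor. Most of these reads came from WT control library 2, the one with the most lung and endothelial marker RNA. Without it, in a comparison chosen after seeing the data, Hspa1a had 19 reads and was at least 19.6-fold higher, and Hspb1 had 63 and was at least 65.0-fold higher, while the ratio of Hspa1b was 43.8. In the 3 tumour libraries with the least lung and endothelial marker RNA, Hspa1b was at 75.2, 61.5 and 47.8 CPM and Hspb1 at 2.80, 3.65 and 2.53 CPM.

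The members that were well expressed in culture also rose. Hsp90aa1 went from a mean of 305 ± 12.1 CPM (SD, n = 3) to 1910 ± 231 CPM (n = 2), a log2 fold change of 2.67 ± 0.09. Hsph1 gave 2.45 ± 0.15 and Dnajb1 2.09 ± 0.09. Hspa8 rose by 1.67 ± 0.10, Hspd1 by 1.08 ± 0.07, Hsf1 by 0.54 ± 0.08 and Hspa4 by 0.36 ± 0.08, with adjusted p between 2.99e-05 and 0.00577 (edgeR). For Hsf1 the lowest tumour library was 1.10 times and for Hspa4 1.11 times the highest culture, and for Hsp90aa1 3.63 times. Immediate early genes, which rise within minutes of stress or handling, moved the same way: the sum of 10 of them including Fos, Jun and Egr1 was 164 to 294 CPM in culture and 4477 to 8693 CPM in the tumours. The part of handling in the members' levels was not tested.

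Of the other chaperone genes, 37 of 75 tested were called higher in WT control tumours and 18 lower (median 0.23). Over all 13259 genes, 4900 were called higher and 4364 lower, and the family counts below stand beside these. Dnaja4, Hspa12b and Hsf4 had too few culture reads to be tested in the cultures alone. They passed the read filter here only through the tumour libraries, where they were high. Their part in these counts was therefore fixed in advance, also where Dnaja4 is named below. Among those named by the rule, Dnaja4 had 1 read in the control cultures, on the opposite strand, and 733 in the WT control tumours. On the gene's strand it had 0 and 730 reads, at least 197-fold higher, and it lay between 12.0 and 20.5 CPM in all 8 tumour libraries. Dnaja1, another J-domain partner of HSP70, was at 3.29 ± 0.09 and Serpinh1, the collagen chaperone HSP47, at 2.81 ± 0.10. The largest negative values were Hspb6 (-1.41 ± 0.17), Sil1 (-1.39 ± 0.11), the exchange factor of BiP, and Hspa4l (-1.38 ± 0.15). By family, the counts higher and lower were 8 and 2 of 15 for the HSP90 family and co-chaperones, 11 and 4 of 21 for other J-domain proteins, 5 and 1 of 9 for chaperonins, 4 and 2 of 10 for other HSP70 and HSP110 genes, 4 and 5 of 10 for exchange factors, 2 and 2 of 4 for other small heat shock proteins, and 3 and 2 of 6 for other heat shock factors and regulators.

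Over the 8 tumour libraries, the members did not vary as 1 group. The correlation of a member's log2 level with the mean standardised profile of all 10, which includes it, ran from 0.92 for Hspd1 and 0.80 for Dnajb1 to -0.14 for Hspb1, -0.21 for Hsf1 and -0.36 for Hspa1a. The 5 genes outside the members with the highest correlation to that profile, among 10229 ranked, were Ccdc171 (0.98), Sf3a3 (0.96), Tiprl (0.95), Cetn2 (0.95) and Park7 (0.94). At most 2 of these 5 stayed in the first 5 when a library was left out, and none without PAD4 KO laparotomy library 2. These values describe 8 libraries that share hosts' groups and sorting.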

How the data were processed

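The authors deposited 1 table of raw read counts per gene for each of 14 libraries, with 24411 genes, 4 summary lines that name no gene and were left out, and 3 count columns. Per the submitters' processing notes, reads were trimmed with Trimmomatic and aligned with STAR to mm10, tool versions not given in the sources used here. Per library, 12.1 to 24.0% of reads fell in no feature and 6.14 to 9.25% mapped to several places. The unstranded column was used; the column for the strand opposite to genes held 1.09 to 1.20% of stranded counts.

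Counts were fitted with edgeR 4.0.16 (filterByExpr, TMM, robust quasi-likelihood test) over all genes and called at a Benjamini-Hochberg adjusted p below 0.05. The NET comparison used 6 libraries, the host comparisons all 8 tumour libraries and the tumour against culture comparison 5. Printed CPM levels use TMM factors over the 14 libraries with no count added, and levels per kilobase use GENCODE exon lengths. SE is the log2 fold change divided by the root of its F value. The 95% intervals treat the estimate as normally distributed with this SE, so with so few libraries they are too narrow. Alternatives were other scalings, no filter, DESeq2 1.42.0, the sense column, a replicate block, other fits and leaving out each library. Scripts were tested on simulated data. No 2 libraries held identical values.

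All members are named in every comparison. Of the other chaperone genes, the 3 largest differences called in each direction with a mean of at least 5 CPM are named, and others are said to be picked. The genes of like pattern are the 5 highest in Pearson correlation with the members' mean profile (prior count 2). The members and lists were chosen with earlier results of these data known.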

Additional observations from a re-analysis of the deposited data

Results flagged for a closer look

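Reads on the strand opposite to the gene lie outside the comparisons above, and in 5 listed chaperone genes they outnumbered the gene's own in the cultures, the tumours or both. In culture they were 11 reads or 91.7% for Hspb1, 576 reads or 100% for Hspa1l and 23 reads or 92.0% for Hspb7, and Hspb3 and Dnaja4 had 1 read each, also opposite. In the tumours they were 1021 reads or 97.5% for Hspa1l and 17 reads or 100% for Hspb3, while for Hspb1 they were 65 reads or 3.86%. The source of these reads was not tested.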

How the results depend on the processing

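With NET chromatin, Hsph1, Dnajb1 and Hsp90aa1 were called under every alternative run, and the count of members called went from 5 to 3 under library totals and to 3 in the fit over all 14 libraries, where Hspa8 and Hspd1 were at an adjusted p of 0.0743 and 0.0947 (edgeR); leaving out 1 library gave 4 to 5. Scaling by library totals turned Hspa4 to -0.12 and Hsf1 to -0.15, and no filter turned Hsf1 to -0.0077. For laparotomy in WT hosts 0 became 2 in DESeq2 and 1 in the fit over all 14 libraries, and for the difference 0 became 1 in that fit. Over all genes, the calls for laparotomy in WT hosts went from 8 to 1220 in DESeq2 and 1450 in the 14-library fit, 166 with no filter and 0 with the replicate block. In the difference Hsph1 turned to 0.012 (DESeq2's size factors), 0.011 (DESeq2) and 0.012 (14-library fit). In PAD4 KO against WT hosts with laparotomy Hspa1a turned to -0.036 under library totals, -0.0047 with no filter and -0.074 with the replicate block. All 10 members were called for tumours against culture under every alternative.

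Same-numbered libraries correlated in their deviations at r of 0.37 between WT control and PAD4 KO control tumours, and at -0.13 to 0.066 between the other tumour groups and -0.0009 to 0.043 in culture. Not every pair was above 0.1 and the labels name no shared source, so the numbers were not taken to pair the libraries; with the replicate block the members called were 5 for NET chromatin, 0 in each host comparison and 10 for tumours against culture.

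Leaving out 1 library turned the sign of small or poorly counted values, none of them called. For NET chromatin the ranges were Hsf1 -0.028 to 0.060 and Hspa4 -0.0044 to 0.066. For laparotomy in WT hosts they were Hsph1 -0.46 to 0.083, Hspa8 -0.14 to 0.038, Hsp90aa1 -0.19 to 0.031 and Hspa1a -2.70 to 0.14. For laparotomy in PAD4 KO hosts they were Hspa1a -1.99 to 0.65, Hspa1b -0.38 to 0.18, Hspb1 -1.40 to 0.82, Hspa4 -0.17 to 0.060, Dnajb1 -0.24 to 0.40, Hsp90aa1 -0.031 to 0.11 and Hspd1 -0.13 to 0.39. For the difference they were Hsf1 -0.0087 to 0.082, Hsph1 -0.31 to 0.24, Hspa1a -1.35 to 2.55, Hspd1 -0.34 to 0.18 and Dnajb1 -0.57 to 0.083. For PAD4 KO against WT hosts without laparotomy they were Hspa8 -0.14 to 0.058, Hsp90aa1 -0.15 to 0.092, Hspa1a -2.55 to 1.35 and Hspb1 -2.78 to 0.32, and with laparotomy Hspa1a -0.45 to 0.64, Dnajb1 -0.28 to 0.37, Hspa4 -0.055 to 0.19 and Hspd1 -0.20 to 0.33. A group left with 1 library is assumed to vary like the others. The causes of these changes were not tested, and 2 libraries a group and few reads of Hspa1a and Hspb1 limit what could be detected.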
